A study of Mus musculus with 21 samples.

Results

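The regions described here are Fbxl19 binding sites that were listed at both a high and a low level of tagged Fbxl19 and that had no Rnf20 peak. They were chosen by measured peaks: an OE-high Fbxl19 peak entered if it overlapped an OE-low Fbxl19 peak by at least 1 bp and overlapped no Rnf20 peak. This held for 1077 of the 13669 OE-high peaks (7.88%), or 61.2% of the 1761 OE-high peaks that met an OE-low peak. They are called Rnf20-free shared sites below, and they were followed across 5 lists of H2Bub1 domains that played no part in the choice.

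Fbxl19 carries an F-box and a CXXC zinc finger, and CXXC fingers are known to recognise CpG that is not methylated. In mouse embryonic stem (ES) cells it is known to sit at CpG islands and to bring other regulators there. Rnf20 is a RING-type E3 ligase that attaches a single ubiquitin to histone H2B. The product, H2Bub1, is laid down with transcription and is known to cover the bodies of transcribed genes, starting just downstream of the promoter. The series title proposes that Fbxl19 brings Rnf20 to CpG islands and so promotes H2Bub1.

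All samples came from J1, a pluripotent mouse ES cell line, kept undifferentiated or taken to day 4 of differentiation. Tagged Fbxl19 was pulled down on streptavidin beads in 2 samples of OE-high cells, which expressed flag-biotin Fbxl19 more than 5-fold over the endogenous level, and in 2 samples of OE-low cells, below the endogenous level. Both levels come from selected clones, and whether each is 1 clone or several is not clear from the labels. The labels of the OE-high Fbxl19 samples name an H2Bub1 list, so the Fbxl19 list was assigned to them from the name it carries and from their titles. Per the labels, the OE-low cells and the cells of the single Rnf20 sample contain BirA, a biotin ligase, and no list from cells with BirA alone was used here. H2Bub1 was precipitated with an antibody from 2 samples of Fbxl19 knockdown ES cells, 3 of OE-high ES cells, 2 of Fbxl19 knockdown cells at day 4 of differentiation, 2 of cells at day 4 of differentiation and 3 of ES cells. The sources used here do not give how Fbxl19 was knocked down or how cells were differentiated. Fbxl19 and Rnf20 were mapped in ES cells, so in the knockdown and differentiated lists the sites are positions only, not measured binding.

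Each condition was represented by 1 list of peaks or domains on the mm9 build, combined over replicates except for Rnf20. Values per replicate were not analysed here and the depth per sample is unknown, so no spread between replicates could be set against a difference and no test was made. Shares carry exact 95% intervals (Clopper-Pearson). These reflect counting error alone, and peaks are not replicates of a condition. The H2Bub1 lists differ in size: 1813 domains over 41.9 Mb in knockdown ES cells, 7216 over 246 Mb in OE-high cells, 1090 over 15.6 Mb in differentiated knockdown cells, 5125 over 156 Mb in differentiated cells and 2937 over 57.4 Mb in ES cells. A share of sites in domains therefore moves with how much of the genome each list covers. The lists hold no expression values, so the identity of the cells could not be checked against marker genes.

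Rnf20-free shared sites were short, and the summits of both Fbxl19 lists nearly coincided. Their median length was 535 bp (171 to 3064) in the OE-high list. The OE-low peak inside them had a median length of 260 bp (150 to 1014), and 1076 sites held 1 OE-low peak and 1 site held 2. The OE-high and OE-low summits lay a median of 26 bp apart, and in 994 sites (92.3%) they lay within 100 bp. Because the choice required overlapping peaks, this closeness is a description and not a test.

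The authors give 2 scores per Fbxl19 peak, of which the first resembles a fold enrichment and the second a pileup at the summit, although neither is stated. The first score had a median of 13.1 over the 1077 sites, against 15.3 in the 684 shared sites with Rnf20, 10.2 in the 9526 OE-high-only peaks without Rnf20 and 10.7 over all OE-high peaks. Length followed another order, with medians of 535 bp in Rnf20-free shared sites, 825 bp in shared sites with Rnf20, 579 bp in OE-high-only peaks without Rnf20 and 625 bp over all OE-high peaks. A longer peak can meet a peak of another list more easily, so length was not independent of the choice. Between the OE-high and OE-low lists, the first scores of the 1077 sites had a Spearman rho of 0.28 and the second scores a rho of 0.55, over sites that share their pulldowns and were required to be listed in both.

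The highest first score in the OE-high list belonged to a site at 93661308 to 93662260 on chromosome 10, with 188 in OE-high but 9.82 in OE-low. A 262-bp site at 66164693 to 66164954 on chromosome 8 came next, with 113 in OE-high and 86.8 in OE-low. The third, a 220-bp site at 33932758 to 33932977 on chromosome 17, had 49.4 in OE-high and 28.8 in OE-low. The first of these lay in an OE-high H2Bub1 domain and in no other, and the 2 short ones lay in no domain of any list.

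Sites near the edge of the rule were few. The smallest overlap with an OE-low peak was 83 bp, at 31087336 to 31088079 on chromosome 9, followed by 133 bp at 166432789 to 166432966 on chromosome X. Just outside the rule, 3 OE-high peaks without Rnf20 came within 100 bp of an OE-low peak without touching it, among them 115218625 to 115219677 on chromosome 9 (68 bp away) and 19886073 to 19886310 on chromosome 7 (69 bp away). On the Rnf20 side, 7 sites had an Rnf20 peak within 200 bp and 39 within 1 kb. The closest were at 116942948 to 116943446 on chromosome 11 (65 bp away) and 128710029 to 128710501 on chromosome 6 (88 bp away), neither of which lay in an H2Bub1 domain. The median distance to the nearest Rnf20 peak was 68722 bp in the whole group, and 443 sites lay more than 100 kb from one. Of these, 268 lay at 100 to 300 kb and 175 farther away. OE-high-only peaks without Rnf20 had a like median of 65807.5 bp. Of those 9526 peaks, 299 lay within 1 kb of an Rnf20 peak, 2406 at 100 to 300 kb and 1356 farther away.

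Most Rnf20-free shared sites lay outside the H2Bub1 domains of ES cells, and the OE-high list held more of them than any other. Of the 1077 sites, 135 lay in a knockdown ES domain (12.5%, interval 10.6 to 14.7), beside 14.5% of all OE-high Fbxl19 peaks. In the OE-high list 507 sites lay in a domain (47.1%, interval 44.1 to 50.1), beside 53.9% of all peaks. In the differentiated knockdown list it was 57 sites (5.29%, interval 4.03 to 6.80), beside 7.21% of all peaks. The differentiated list held 319 sites (29.6%, interval 26.9 to 32.4), beside 37.4%, and the ES list 203 sites (18.8%, interval 16.6 to 21.3), beside 21.2% of all peaks. In each of the 5 lists the share was thus below that of all OE-high peaks, of which the sites are part. In the ES and knockdown ES lists, however, the share of all peaks lay inside the interval of the sites. All OE-high peaks also include peaks with Rnf20, which the rule left out of the sites.

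The spread of these shares depends on list size. With only the 1090 top-scoring domains of each list, the shares were 7.61% in knockdown ES, 8.45% in OE-high, 5.29% in differentiated knockdown, 5.94% in differentiated and 6.31% in ES cells. The intervals of knockdown ES (6.10 to 9.36), differentiated (4.61 to 7.53) and ES cells (4.94 to 7.94) overlapped, so their order cannot be told from counting error. This setting makes the number of domains equal, not the length of genome they cover.

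**Figure D1:**
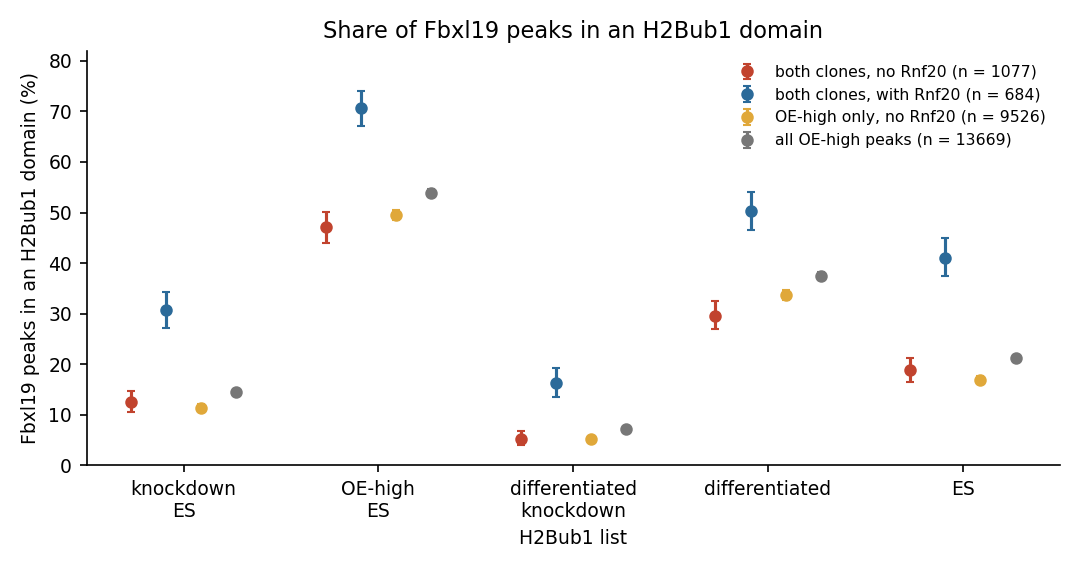
Share of Fbxl19 peaks (vertical axis, %) that lie in an H2Bub1 domain of each list (horizontal axis), for shared sites without Rnf20, shared sites with Rnf20, OE-high-only peaks without Rnf20 and all OE-high peaks; bars are exact 95% intervals for counting error. In each list the shared sites with Rnf20 stand highest (70.6% in OE-high), and shared sites without Rnf20 (47.1%) lie near OE-high-only peaks without Rnf20 (49.5%).

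Over all lengths together, the H2Bub1 shares of Rnf20-free shared sites were nearer to those of OE-high-only peaks without Rnf20 than to those of shared sites with Rnf20. In ES domains the share was 18.8% in Rnf20-free shared sites, against 41.1% in shared sites with Rnf20, a difference of -22.2 percentage points (interval -26.7 to -17.8, from the exact intervals added in squares). In OE-high domains it was 47.1% against 70.6%, a difference of -23.5 points (interval -28.1 to -18.9). The differences were -18.2 points in the knockdown ES list, -10.9 in the differentiated knockdown list and -20.7 in the differentiated list, and all 5 intervals lay below 0. Against OE-high-only peaks without Rnf20, the ES difference was 1.91 points (interval -0.514 to 4.48), and the knockdown ES, OE-high and differentiated knockdown differences were 1.12, -2.41 and 0.149 points, each with an interval that held 0. In the differentiated list the sites were 4.12 points lower (29.6% against 33.7%, difference -4.12, interval -7.00 to -1.14). The ES difference of 1.91 points turned to -2.43 (interval -5.22 to 0.67) when 50% of the OE-high peak had to be covered by OE-low peaks. Without chromosomes 1, 12 and 14 it was -0.59 (interval -3.28 to 2.37). With the top 50% of domains by score it was 2.27 points, with an interval above 0 (0.454 to 4.29). In the other settings run it stayed positive with an interval that held 0.

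Peak length moved with these shares, and its part in the difference from sites with Rnf20 was not tested beyond the classes given here. OE-high peaks were put in 4 classes of length with nearly the same number of peaks in each. In the OE-high H2Bub1 list, the share of Rnf20-free shared sites in a domain was 20.9% at 145 to 407 bp, 46.2% at 408 to 625 bp, 65.5% at 626 to 922 bp and 74.0% at 923 bp and over. Shared sites with Rnf20 gave 52.1%, 62.0%, 68.4% and 79.8% over the same classes. The gap between the groups was therefore wide in the shortest class, 20.9% of 358 sites against 52.1% of 48, and small in the class of 626 to 922 bp, 65.5% of 235 against 68.4% of 212. In ES domains the sites gave 9.22%, 14.9%, 26.4% and 33.2% from the shortest to the longest class, against 41.7%, 27.5%, 35.8% and 51.8% with Rnf20. OE-high-only peaks without Rnf20 gave 25.6%, 47.4%, 61.0% and 72.3% in OE-high domains and 7.72%, 14.1%, 20.7% and 29.2% in ES domains. At 626 to 922 bp the sites were nearer to shared sites with Rnf20 in 3 lists: 20.9% against 25.9% with Rnf20 and 13.6% OE-high-only in knockdown ES, 65.5% against 68.4% and 61.0% in OE-high, and 47.7% against 52.4% and 42.2% in differentiated cells. The shortest class held 358 of the 1077 Rnf20-free shared sites but only 48 of the 684 sites with Rnf20.

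**Figure D2:**
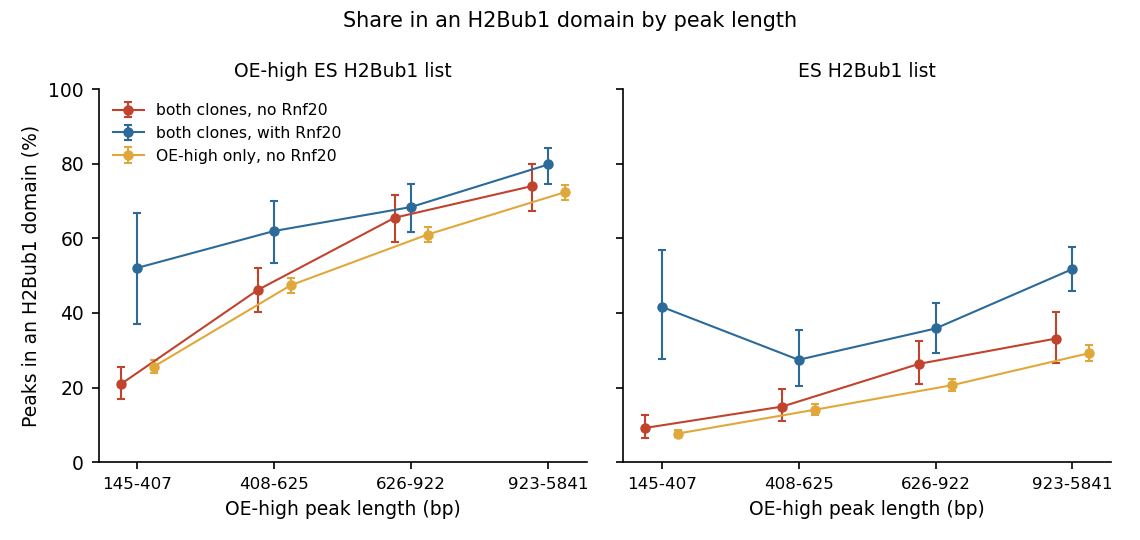
Share of peaks in an H2Bub1 domain (vertical axis, %) in 4 classes of OE-high peak length (horizontal axis, bp), for the OE-high list (left) and the ES list (right); bars are exact 95% intervals. Shares of shared sites without Rnf20 climb with length, from 20.9% to 74.0% in the OE-high list and from 9.22% to 33.2% in the ES list. They lie nearer to OE-high-only peaks without Rnf20 than to shared sites with Rnf20, except at 626 to 922 bp in the OE-high list. There they reach 65.5%, against 61.0% in OE-high-only peaks and 68.4% in shared sites with Rnf20.

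The first OE-high score showed no steady order in ES domains, while in OE-high and differentiated domains the highest score class had the highest share. Over 4 score classes, the share in ES domains was 24.1%, 17.8%, 14.04% and 20.8% from the lowest to the highest class, against 55.4%, 32.7%, 42.6% and 40.0% for shared sites with Rnf20. In OE-high domains the sites gave 41.4%, 37.8%, 43.2% and 52.2% from the lowest to the highest class, and in differentiated domains 23.0%, 25.2%, 25.7% and 33.7%. OE-high-only peaks without Rnf20 also had their highest share in the highest class. They gave 48.0%, 50.2%, 47.0% and 54.5% in OE-high domains and 32.3%, 33.4%, 31.8% and 39.5% in differentiated domains. Shared sites with Rnf20 did not, with 66.1%, 80.8%, 68.5% and 70.5% in OE-high and 41.1%, 50.0%, 52.8% and 50.9% in differentiated domains. The sites in ES domains had a median first score of 14.2 in OE-high and 7.80 in OE-low, and the sites outside had 13.1 and 7.85. Their median second OE-high score was 47 in ES domains and 36 outside. Their median lengths were 730 bp in ES domains and 494 bp outside.

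Across the 5 lists, 535 of the 1077 sites (49.7%) lay in no H2Bub1 domain, beside 42.4% of all OE-high peaks. A further 188 lay in 1 list, 165 in 2, 87 in 3, 68 in 4 and 34 (3.16%) in all 5, beside 4.05% of all OE-high peaks. Among shared sites with Rnf20, 160 of 684 (23.4%) lay in none and 67 (9.80%) in all 5. Among OE-high-only peaks without Rnf20, 47.0% lay in none and 2.78% in all 5. The largest combinations after none were the OE-high list alone (163 sites), OE-high with differentiated (137), every list but the differentiated knockdown (59) and OE-high, differentiated and ES (49). As shares these were 15.1%, 12.7%, 5.48% and 4.55% of the sites, against 14.3%, 17.3%, 5.85% and 5.03% of all OE-high peaks. The ES list alone held 12 sites (1.11%), the differentiated list alone 10 (0.929%) and the knockdown ES list alone 3 (0.279%). Of all OE-high peaks these were 0.944%, 1.22% and 0.541%, so such sites were few in both.

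**Figure D3:**
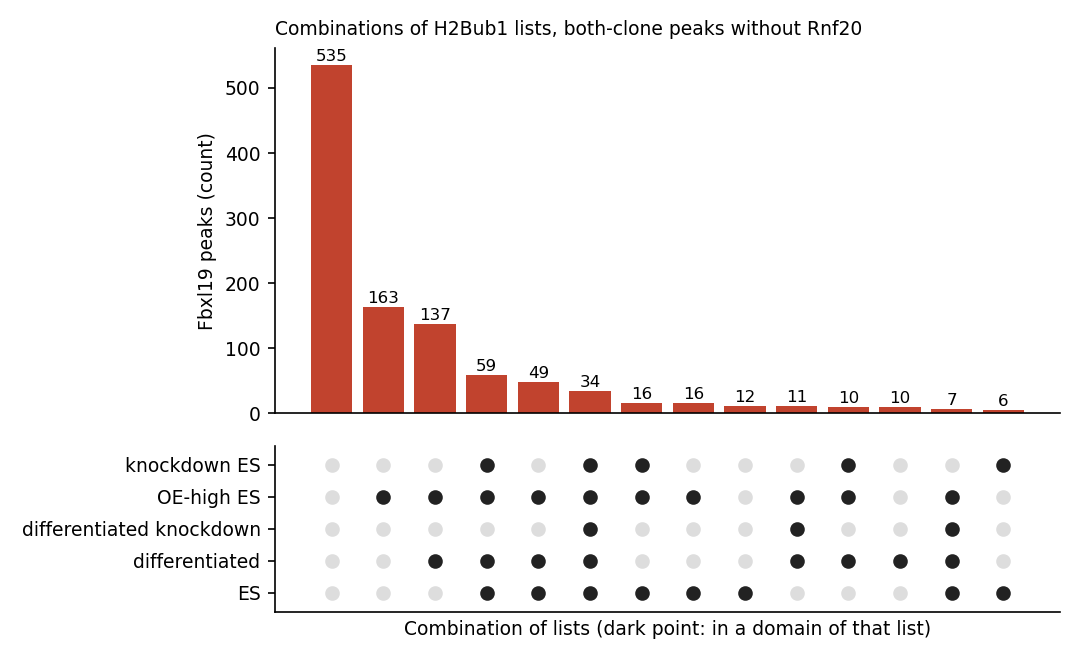
Number of shared sites without Rnf20 (vertical axis, count) in each combination of H2Bub1 lists, for combinations with 6 or more sites; a dark point marks a list with a domain at the site. The bar for no list (535) is the tallest, followed by OE-high alone (163) and OE-high with differentiated (137).

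Named sites show what these combinations look like, with the sites of highest OE-high score given for each. In the OE-high list alone, the site on chromosome 10 with the score of 188 lay 115 bp inside the end of a 22400-bp domain at 93661600 to 93683999, while the nearest ES domain was 609116 bp from the summit. A 408-bp site at 105927184 to 105927591 on chromosome 11 touched a 3200-bp OE-high domain, its summit 41 bp outside the end. In the pair of OE-high and differentiated lists, the site at 68089818 to 68090902 on chromosome 15 had its summit 147 bp from the right end of both domains, 34200 bp long in OE-high and 33000 bp long in differentiated cells. Also in that pair was 155205298 to 155205946 on chromosome 4, at the left end of domains of 2800 bp in OE-high and 3000 bp in differentiated cells.

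Other named sites kept H2Bub1 in most lists. At 122657071 to 122658101 on chromosome 6, with an Rnf20 peak 231 bp away, domains of 17400 bp in knockdown ES, 11200 bp in OE-high, 7400 bp in differentiated and 11200 bp in ES cells met the site, and the nearest differentiated knockdown domain was 32301 bp from the summit. A 1165-bp site at 149995383 to 149996547 on chromosome 5 lay in domains of 34800 bp in knockdown ES, 40200 bp in OE-high, 32400 bp in differentiated and 33200 bp in ES cells. All 5 lists held the site at 136456522 to 136458444 on chromosome 1. There the domain was 235600 bp long in knockdown ES, 73600 bp in OE-high, 32800 bp in differentiated knockdown, 75600 bp in differentiated and 188200 bp in ES cells. In OE-high, differentiated knockdown and differentiated cells that domain began 65 bp from the summit, at position 136456800, whereas in ES cells the summit lay 82064 bp inside. The second site in all 5 lists, at 154748912 to 154750950 on chromosome 1, marked the right end of a domain in each.

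The ES list was next set against the list from ES cells with Fbxl19 knocked down. Whether H2Bub1 at the sites needs Fbxl19 was not tested, because the lists differ in size. Of the 203 Rnf20-free shared sites in an ES domain, 117 were also in a knockdown ES domain (57.6%, interval 50.5 to 64.5), beside 57.5% for all OE-high peaks in ES domains. The other 86 were not. Shared sites with Rnf20 were kept in 66.5% of cases, a difference of -8.91 points whose interval reached from -17.9 to 0.122, and OE-high-only peaks without Rnf20 in 54.3%, a difference of 3.30 points (interval -4.23 to 10.6). Counted as domains, 115 of the 181 ES domains that held a site overlapped a knockdown domain (63.5%, interval 56.1 to 70.5), and 52.2% of all 2937 ES domains did. Domains with a site were longer, at a median of 24400 bp against 7200 bp for the other ES domains. A longer domain can meet a domain of another list more easily, and the part of length was not tested. In the other direction, 18 of the 874 sites outside ES domains lay in a knockdown domain (2.06%, interval 1.23 to 3.24), beside 2.92% for all OE-high peaks outside ES domains.

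Sites kept in the knockdown lay in ES domains of higher score and greater length, with medians of 10.01 and 36400 bp at the 102 kept sites whose summit was inside, against 8.42 and 28800 bp at the 74 missing ones. Where the summit lay in a domain of both lists (98 sites), the domain was 31100 bp long in knockdown and 36400 bp in ES cells at the median, with a median ratio of 1.00 site by site. The knockdown domain was longer at 49 sites and shorter at 47. Among sites in ES but not knockdown domains, those of highest OE-high score were 29273246 to 29274525 on chromosome 11, in a 47800-bp ES domain, and 102320535 to 102322345 on chromosome 12, in a 159000-bp ES domain. Their ES domain scores, 7.11 and 7.44, stood below the ES list median of 9.21.

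In OE-high cells, sites with H2Bub1 in ES cells were listed about as often as other Fbxl19 peaks, and sites without it less often than all OE-high peaks. Of the 203 sites in ES domains, 182 lay in an OE-high domain (89.7%, interval 84.6 to 93.5), beside 91.4% for all OE-high peaks in ES domains. Of the 874 sites outside ES domains, 325 lay in an OE-high domain (37.2%, interval 34.0 to 40.5), beside 43.8% for all OE-high peaks outside ES domains. All OE-high peaks include those with Rnf20 and were longer, with a median of 625 bp against 535 bp in the sites. What length contributed here, and to the differentiated share below, was not tested. The same share was 57.6% in shared sites with Rnf20, a difference of -20.4 points (interval -26.2 to -14.4), and 40.8% in OE-high-only peaks without Rnf20, a difference of -3.66 points (interval -7.06 to -0.19). Where the summit lay in a domain of both lists (136 sites), the domain was 42600 bp long in OE-high and 30500 bp in ES cells at the median. Site by site the median ratio was 1.09 (quartiles 0.931 and 2.77), and the OE-high domain was longer at 81 sites and shorter at 52. The whole lists differed in the same direction, with median domain lengths of 21600 bp in OE-high and 7600 bp in ES cells. With 1090 domains per list, 6.14% of the 1009 sites then outside ES domains lay in an OE-high domain.

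Differentiated cells at day 4 were set against the same ES list as the OE-high cells. Of the 203 sites in ES domains, 149 lay in a differentiated domain (73.4%, interval 66.8 to 79.3), beside 77.3% for all OE-high peaks in ES domains. Of the 874 outside ES domains, 170 lay in one (19.5%, interval 16.9 to 22.2), beside 26.7% for all OE-high peaks. Shared sites with Rnf20 had 35.7% there, a difference of -16.3 points (interval -21.8 to -10.8), and OE-high-only peaks without Rnf20 24.6%, a difference of -5.12 points (interval -7.87 to -2.18). At the 101 sites whose summit lay in a domain of both lists, the domain was 29800 bp long in differentiated and 31000 bp in ES cells at the median. The share of 19.5% was 12.1% of 539 sites when 50% of the OE-high peak had to be covered by OE-low peaks. With 1090 domains per list it was 4.06% of the 1009 sites then outside ES domains.

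Few sites had H2Bub1 in differentiated cells with Fbxl19 knocked down. Of the 319 sites in a differentiated domain, 53 lay in a differentiated knockdown domain (16.6%, interval 12.7 to 21.2), beside 18% for all OE-high peaks in differentiated domains. Shared sites with Rnf20 had 27.3%, a difference of -10.7 points (interval -17.1 to -4.21), and OE-high-only peaks without Rnf20 14.6%, a difference of 2.02 points (interval -2.09 to 6.73). Of the 758 sites outside differentiated domains, 4 were in a differentiated knockdown domain (0.528%), beside 0.771% for all OE-high peaks outside differentiated domains. At the 22 sites whose summit lay in a domain of both lists, the domain was 19100 bp long in differentiated knockdown and 52400 bp in differentiated cells at the median, and it was shorter in the knockdown at 21 of them. The whole lists differed in the same direction, with median domain lengths of 8000 bp in differentiated knockdown and 19800 bp in differentiated cells. The kept share of 16.6% was 9.82% of 224 sites when the summit itself had to lie in the domain. With 1090 domains per list it was 48.4% of 64 sites (interval 35.8 to 61.3). That setting keeps only the top-scoring differentiated domains but leaves the differentiated knockdown list whole, so the base differs. Whether it differs from the kept share in ES cells (57.6%) was not tested, and the lists differ in size.

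Summits in or close to a domain lay near its end in shares close to those of all OE-high peaks. Summits inside a domain lay deeper at the median than those of all OE-high peaks, except in the differentiated knockdown list. In the OE-high list 394 summits lay inside a domain and 134 lay outside within 1 kb of an end. Of these 528 summits, 246 were within 1 kb of an end (46.6%, interval 42.3 to 50.9), on either side of it. All OE-high peaks gave 49.5%. The same share was 46.4% of sites and 49.8% of all OE-high peaks in the knockdown ES list, 80.0% of 60 sites and 78.9% of all in the differentiated knockdown list, 57.4% and 59.5% in the differentiated list, and 47.9% and 54.1% in the ES list. Shared sites with Rnf20 had 41.4% in the OE-high list and OE-high-only peaks without Rnf20 50.7%. Summits outside within 1 kb counted as near an end by definition. For summits inside, the median distance to the end in the OE-high list was 4705.5 bp in the sites and 3178 bp in all OE-high peaks. It was 2239.5 and 1829.5 bp in knockdown ES and 313 and 381 bp in differentiated knockdown cells. In differentiated cells it was 2861 and 2210.5 bp, and in ES cells 2660 and 1404 bp. Shared sites with Rnf20 had 4797 bp in the OE-high list. The nearest end was on the same side in both lists at 87 of 98 sites for knockdown and ES cells, at 108 of 136 for OE-high and ES cells, at 83 of 101 for differentiated and ES cells and at 21 of 22 for differentiated knockdown and differentiated cells. These counts of sides were made for the sites only, so no share over all OE-high peaks stands beside them. Domains end on a 200-bp grid, so distances to an end are no finer than that.

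**Figure D4:**
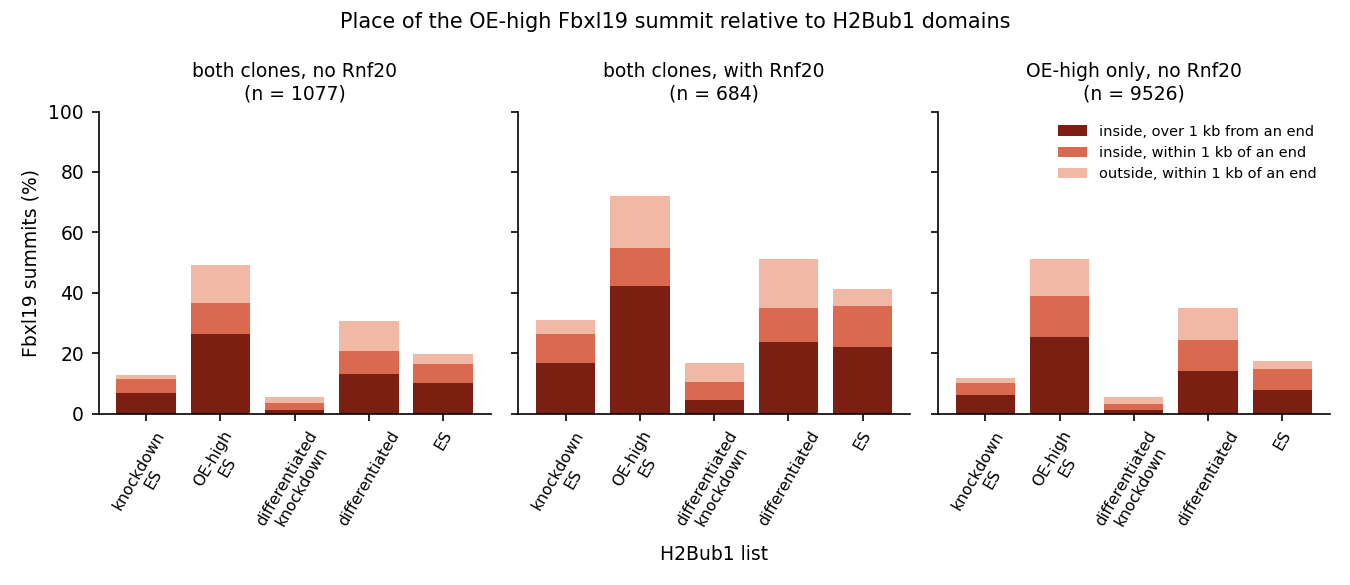
Place of OE-high Fbxl19 summits (vertical axis, % of summits) relative to the H2Bub1 domains of each list (horizontal axis), for shared sites without Rnf20 (left), shared sites with Rnf20 (middle) and OE-high-only peaks without Rnf20 (right); colours stack summits deep inside a domain, inside within 1 kb of an end and outside within 1 kb of an end. In the OE-high list 26.2% of shared sites without Rnf20 lay deep inside, 10.4% inside near an end and 12.4% just outside.

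Coverage by H2Bub1 around the sites was lower at 50 kb than at the summit, as it was around the other groups of peaks. In OE-high cells 36.6% of the summits were covered, 37.7% of positions 1 kb away, 35.2% at 5 kb, 31.6% at 20 kb and 27.8% at 50 kb, as means of both sides. Around shared sites with Rnf20 the values were 54.7%, 56.9%, 50.4%, 37.3% and 30.6%. In ES cells coverage around Rnf20-free shared sites was 16.3% at the summit and 7.89% at 50 kb, against 35.5% and 11.3% around shared sites with Rnf20. The difference between shared sites with and without Rnf20 was thus smaller at 50 kb than at the summit in both lists. OE-high-only peaks without Rnf20 were close to the sites. Their coverage was 38.8%, 38.3%, 34.9%, 30.6% and 27.9% in OE-high cells over the same distances. In ES cells it was 14.7% at the summit and 7.01% at 50 kb.

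The share of domains with an Rnf20 peak somewhere was lower among domains that held a site than among all domains, in each list. The sites themselves were chosen to lack Rnf20, so this share is not independent of the choice. The 469 OE-high domains with a site had a median length of 34400 bp, against 21200 bp for the other OE-high domains, and 132 of them (28.1%) held an Rnf20 peak somewhere, beside 31.7% of all OE-high domains. In the ES list 181 domains held a site, with a median length of 24400 bp against 7200 bp, and 59 of them (32.6%) held an Rnf20 peak, beside 38.8% of all ES domains. In the differentiated knockdown list 17.9% of the 56 domains with a site held an Rnf20 peak, beside 40.1% of all its domains, and in the differentiated list 22.8% of 307, beside 32.1%. The knockdown ES list gave 32.5% of 123, beside 41.4%. In 89 of the 181 ES domains with a site the site was the only OE-high Fbxl19 peak. Of the 1077 sites, 93 had another such site within 10 kb, and 430 had another OE-high Fbxl19 peak of any kind within 10 kb.

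In ES domains lay 20.5% of the 39 sites within 1 kb of an Rnf20 peak, 31.1% of the 119 sites at 1 to 10 kb, 17.98% at 10 to 30 kb, 17.4% at 30 to 100 kb, 16.4% at 100 to 300 kb and 17.1% farther away. In OE-high domains the shares were 35.9%, 56.3%, 48.9%, 46.3%, 47.0% and 42.9%. OE-high-only peaks without Rnf20 gave 27.8%, 20.2%, 16.5%, 16.5%, 15.9% and 15.0% in ES domains over the same distances, and 58.5%, 55.4%, 53.9%, 49.5%, 44.8% and 45.3% in OE-high domains. Within 1 kb of Rnf20 the sites thus stood lower in OE-high domains, 35.9% of 39 against 58.5% of 299, and from 10 kb on both groups varied little in ES domains. The intervals of the 39 nearest sites were wide, from 9.30 to 36.5% for the ES list and from 21.2 to 52.8% for the OE-high list.

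Chromosomes contributed unevenly. The sites made up 15.8% of OE-high peaks on chromosome 12 (110 sites), 14.6% on chromosome 14 (100) and 11.5% on chromosome 1 (151), against 2.47% on chromosome 8 (18), where Rnf20 peaks were most numerous (928). The rule leaves out peaks that meet Rnf20, so these shares are not independent of the number of Rnf20 peaks on a chromosome. On chromosome 1, 33.8% of sites lay in an ES domain (interval 26.3 to 41.9), against 15.3% on the chromosomes other than 1, 12 and 14 (interval 12.7 to 18.1). Of all OE-high peaks, 30.9% lay in an ES domain on chromosome 1 and 20.3% on those others. Knockdown ES domains kept 42 of the 51 ES sites on chromosome 1 (82.4%, interval 69.1 to 91.6), 15 of 43 on chromosomes 12 and 14 (34.9%, interval 21.0 to 50.9) and 60 of 109 on the others (55.0%, interval 45.2 to 64.6). All OE-high peaks in ES domains had the same order, with 75.4%, 37.8% and 56.5%. Differentiated knockdown domains kept 22 of 48 sites on chromosome 1, 2 of 49 on chromosomes 12 and 14 and 29 of 222 on the others, which are 45.8%, 4.08% and 13.1%. All OE-high peaks in differentiated domains gave 31.3%, 10.8% and 17.2%. These chromosomes were set apart after their values were seen, and the cause of the unevenness was not tested. Without chromosome 1, 49.3% of ES sites were kept in knockdown ES cells and 11.4% of differentiated sites in the differentiated knockdown.

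**Figure D5:**
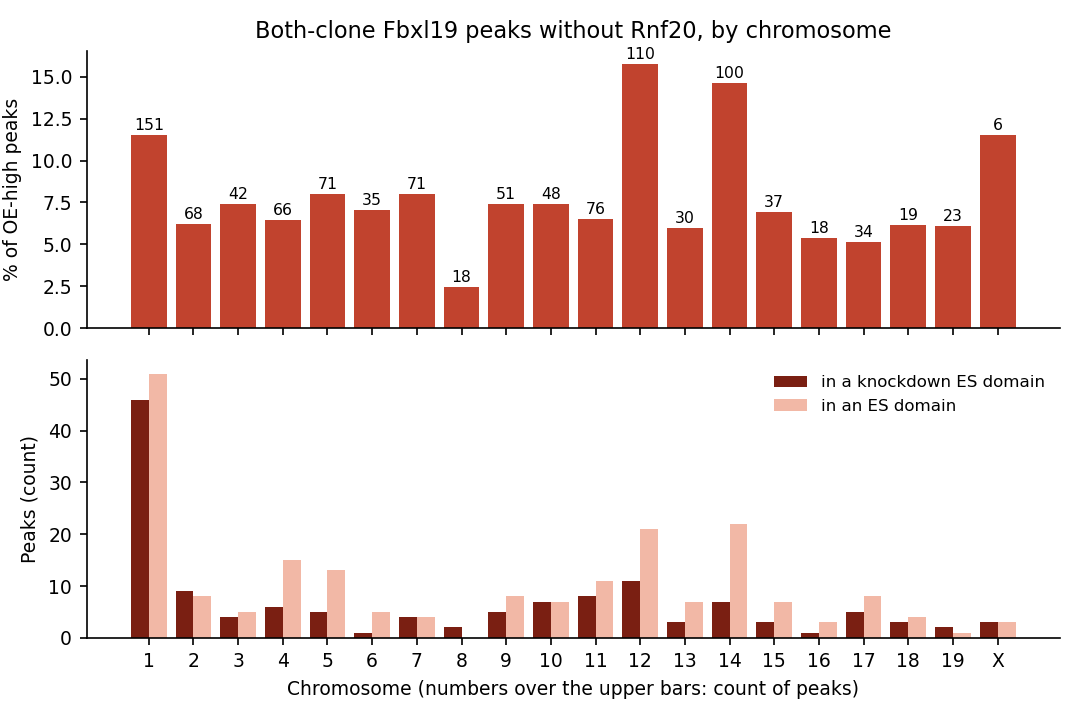
Upper panel: shared sites without Rnf20 as a share of OE-high Fbxl19 peaks (vertical axis, %) by chromosome, with the number of sites above each bar. Lower panel: number of sites in knockdown ES domains (dark) and in ES domains (light); chromosome 1 holds 151 sites, 51 of them in ES domains, and chromosomes 12 and 14 reach 15.8% and 14.6% in the upper panel.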

How the data were processed

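Chromatin was immunoprecipitated and sequenced, and the lists of peaks were used as deposited. Per the submitters' processing notes, the tools were BWA (0.5.9-r16), a read aligner, and MACS, a peak caller, and the build was mm9; which list came from which tool is not said. Track lines of the H2Bub1 lists end in BCP, a caller of broad domains, per the file headers. Each also holds a number followed by M, namely 46 for knockdown ES, 46 for OE-high, 41 for differentiated knockdown, 36 for differentiated and 60 for ES cells, and what it counts is not stated. The deposited score of each peak or domain is the authors' own. Its formula is not stated, and it was used only to rank or filter within a list. A further deposited column of the H2Bub1 lists holds domain length in base pairs. For the Fbxl19 peaks the sources used here give no caller. The Rnf20 list names MACS and comes from a single sample. Labels of the third H2Bub1 sample of OE-high cells mention no list, so it is unknown if its reads were included.

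Groups follow the sample titles. Positions are counted from 1 on mm9: Fbxl19 starts were read as counted from 1, the others as counted from 0. Overlap meant at least 1 bp. For each site the OE-low peak with the highest first score gave its OE-low values. Shares carry exact Clopper-Pearson 95% intervals, and intervals of differences add the 2 exact intervals in squares. No test was made, since each condition has 1 list. Named sites were those of highest OE-high first score overall and per combination of lists, and those nearest to the thresholds, leaving out chromosome 18, unplaced contigs and the mitochondrial chromosome. The sites and comparisons were chosen with earlier results of these data known. The reference tables follow a later build, GRCm38, so sites were given no gene and no sequence. Overlap counting was first tested on simulated data with known overlaps. Python 3.11.15, NumPy 2.4.6, SciPy 1.17.1, pandas 2.3.3 and matplotlib 3.10.9 were used.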

Additional observations from a re-analysis of the deposited data

How the results depend on the processing

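Of 157 values of 13 results under other settings, 105 stayed within the interval of the value reported (for the count of sites, within 1.5 times) and 52 moved outside it. Of the differences between groups of peaks, other settings were run for the ES share only. Its difference from shared sites with Rnf20 stayed below 0 in all of them. Autosomes only, domains of at least 2 kb, no Rnf20 peak within 1 kb, the top 50% of OE-high peaks by score and OE-low peaks as the unit moved none of the results computed under them; with OE-low peaks as the unit, the comparison with OE-high-only peaks could not be made. No paired analysis was possible because the lists are of combined replicates, and for the same reason no replicate could be left out. Shares below are in the order knockdown ES, OE-high, differentiated knockdown, differentiated and ES.

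With 50% of the OE-high peak covered by OE-low peaks, 633 sites were left, with shares of 9.16%, 35.4%, 2.84%, 19.3% and 14.8%. Then 12.3% of differentiated sites were kept with knockdown, 27.3% and 12.1% of sites outside ES domains were in OE-high and differentiated domains, the ES difference from OE-high-only peaks was -2.43 points and 40.6% of summits were at an end of OE-high domains. This setting favours short OE-high peaks by construction.

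With the summit required inside, shares were 36.6% in OE-high, 3.34% in differentiated knockdown, 20.8% in differentiated and 16.3% in ES cells. Then 9.82% of differentiated sites were kept, and 28.6% and 13.7% of sites outside ES domains were in OE-high and differentiated domains.

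With the top 50% of domains by score, shares were 6.31%, 28.0%, 2.69%, 15.97% and 10.03%. Then 11.0% of differentiated sites were kept, 22.9% and 11.7% of sites outside ES domains were in OE-high and differentiated domains, and the ES difference from shared sites with Rnf20 was -17.3 points. With 1090 domains per list, shares were 7.61%, 8.45%, 5.29%, 5.94% and 6.31%, and that difference was -16.9 points. Of the sites still in a domain, 67.6% of 68 ES sites and 48.4% of 64 differentiated sites were kept. Of the 1009 sites then outside ES domains, 6.14% and 4.06% were in OE-high and differentiated domains.

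Without chromosomes 1 and 8, the knockdown ES share was 9.58% and the differentiated knockdown share 3.74%, and 49.3% of ES sites and 11.7% of differentiated sites were kept. Alternatives added after the data were seen left out chromosome 1, which gave 9.61%, 3.67% and 16.4% in knockdown ES, differentiated knockdown and ES cells with 49.3% and 11.4% kept, or chromosomes 1, 12 and 14, which left 716 sites with 9.92% and 15.2% in knockdown ES and ES cells. Without these 3 chromosomes, 22.2% of sites outside ES domains were in a differentiated domain and the ES difference from OE-high-only peaks was -0.59 points. With an end taken as 500 bp or 2 kb, 41.8% or 53.5% of summits were at an end of OE-high domains. The depth behind each list is unknown, so what it could not detect is unknown too.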
